A study of Homo sapiens with 6 samples.

Results

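The TNF superfamily comprises the cytokine tumour necrosis factor, its relatives and their receptors. Genes were taken by name: all symbols beginning with TNFSF (ligands) or TNFRSF (receptors), plus TNF, FAS, FASLG, CD40, CD40LG, CD27, CD70, LTA, LTB, LTBR, NGFR, EDAR, EDA2R and EDA. The rule gave 50 genes, of which 41 had a probe set annotated to that gene alone and were measured, out of 18417 genes in all. These 41 were 15 ligands, 8 death receptors, 2 decoy receptors and 16 other receptors. The remaining 9 (CD40LG, TNFRSF6B, TNFRSF10C, TNFSF12, TNFSF13, the fused transcript TNFSF12-TNFSF13, and the noncoding TNFRSF10A-DT, TNFRSF10B-AS1 and TNFRSF14-AS1) had no probe set of their own among those used here and entered no test. Values came from A204, an established line from a human rhabdoid tumour, on 6 whole-transcript arrays of total RNA. On 3 arrays the cells had been given SAHA (vorinostat, which blocks histone deacetylases) for 12 h, and on 3 control arrays they had been given DMSO, the solvent, although a different label reads none. The concentration unit of SAHA is incomplete in the labels and is not given here. All arrays are of 1 cell line. The labels do not state that replicates were separate cultures, and a p-value here therefore speaks of array-to-array spread, part or all of which may be technical.

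Ligands of this family are mostly trimeric membrane proteins, often released by proteases, and each binds a receptor with cysteine-rich repeats on another or the same cell. Receptors with an intracellular death domain recruit adapters such as FADD and TRADD and can start apoptosis through caspase-8, while the others bind TRAF proteins and act mainly on NF-kB and MAP kinases. Decoy receptors bind a ligand without passing on the death signal. Many ligands and receptors of the family are best known from lymphocytes and antigen-presenting cells, where they act as costimulators, and tumour cells of other origins can carry them as well.

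Levels are given as log2 of the deposited signal. A gene is called where the adjusted p of limma, with Benjamini-Hochberg adjustment over all 18417 genes, was under 0.05, and a change is always SAHA minus control in log2 units, with its standard error (SE). Array medians of the deposited signal lay between 142 and 149. Pearson correlations over all 33252 probe sets were 0.997 to 0.998 within a group and 0.973 to 0.974 between groups. No array gave a call of presence above background, so a low level may be background, and the change of a dim gene may then be too small. In RNA from whole cultures, more cells with a transcript and more transcript per cell cannot be told apart. KRT8, KRT18 and VIM, which mark the epithelial and mesenchymal filaments of rhabdoid cells, averaged 13.48, 13.33 and 12.63 after SAHA, against 13.55, 13.54 and 12.81 in control. SMARCB1, whose loss is typical of this tumour, was at 7.22 ± 0.05 after SAHA and at 7.74 ± 0.04 in control (SD, n = 3). KRT18, VIM and SMARCB1 were called lower. Of 5 muscle genes, DES, desmin, was called higher (8.34 after SAHA, 7.58 in control), and the others, among them the muscle regulators MYOD1 and MYOG, did not pass.

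SAHA changed 8 members by at least 1 log2 unit, and those in opposite directions. Of 41 measured members, 13 were called higher, 8 lower and 20 were not called. With a further quantile normalization, and also with cyclic loess scaling, 13 were called higher and 12 lower. Of all genes, 62.9% were called with the former and 60.8% with the latter. The 21 called members are 51.2% of those measured, against 60% of all genes (31.1% higher and 28.9% lower), so the count of calls by itself does not set the family apart. Changes of at least 1 log2 unit were called for 5 members upwards and 3 downwards. Those 8 are 19.5% of the members, against 11.3% of all genes tested (5.84% higher and 5.42% lower). The 5 were the ligands TNFSF9, TNFSF10 and TNFSF18, the receptor TNFRSF9 and the decoy receptor TNFRSF10D. The 3 were the receptors FAS, TNFRSF10A and EDA2R. No ligand was called lower by as much as 0.5. The SAHA and control arrays did not overlap for 26 of 41 members, 16 above and 10 below, against 65.4% of all genes (33.8% above and 31.6% below). At least 0.5 log2 units was reached by 10 called members, against 29.3% of all genes, and an adjusted p under 0.01 by 18 members, against 50.6% of all genes.

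**Figure D1:**
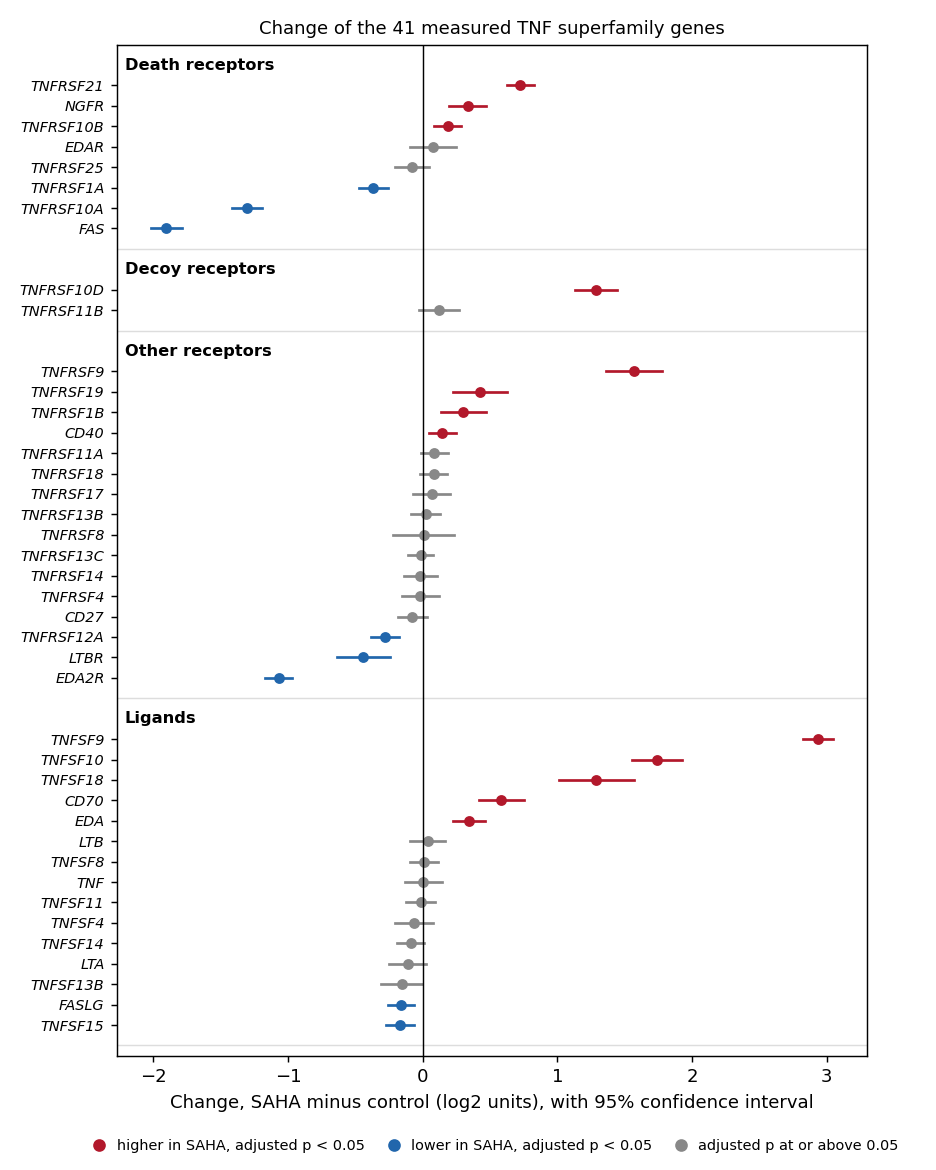
Change of each of the 41 measured members (SAHA minus control, log2 units, horizontal axis), ordered by role and by size. Points are limma estimates from 3 SAHA and 3 control arrays, lines are 95% confidence intervals, red and blue mark genes called higher and lower, and grey genes that did not pass. TNFSF9 lies farthest to the right at 2.93 and FAS farthest to the left at -1.90.

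Among the 15 ligands, 5 were called higher, 2 lower and 8 did not pass, so that 46.7% were called, against 60% of all genes. Under either of the other scalings the split was 5 higher and 5 lower, because LTA, TNFSF13B and TNFSF14 were then called lower. TNFSF9, the ligand of the T cell costimulator 4-1BB, changed most. TNFSF9 stood at 11.05, 11.05 and 11.09 on the SAHA arrays, against 8.20, 8.08 and 8.11 on the control arrays. Every SAHA array was far above every control array, and the spread within either group was small. The change was 2.93 ± 0.05 (SE), a 7.64-fold rise (adjusted p = 5.52e-09), and ranked 53 from the top of 18417 genes. TNFSF10 encodes TRAIL, which binds the death receptors TNFRSF10A and TNFRSF10B. TNFSF10 read 6.73, 6.47 and 6.73 in SAHA and 4.857, 4.860 and 4.9999 in control. The groups were again apart, with a control level low enough that the fold may be understated. TNFSF10 rose by 1.74 ± 0.08 (SE), 3.34-fold (adjusted p = 5.62e-07). TNFSF18 is the ligand of GITR, a receptor of T cells. TNFSF18 was measured at 5.98, 6.15 and 5.81 with SAHA, against 4.60, 4.94 and 4.55 without. All 3 SAHA values exceeded the highest control value, at low levels and and the control arrays spread more than those of the other 4 genes that rose by at least 1 log2 unit. TNFSF18 rose by 1.29 ± 0.12 (SE), 2.44-fold (adjusted p = 2.95e-05).

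CD70, the ligand of CD27, rose less. CD70 read 7.41, 7.25 and 7.41 in SAHA and 6.67, 6.90 and 6.74 in control, with no overlap. CD70 rose by 0.58 ± 0.07 (SE, adjusted p = 0.000176). EDA, the ectodysplasin that guides development of hair, teeth and sweat glands, was at 6.58, 6.64 and 6.64 in SAHA and 6.32, 6.32 and 6.19 in control, a rise of 0.34 ± 0.05 (SE, adjusted p = 0.000526).

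The ligands of the other death receptors moved little. TNF itself, the founding member, was at 6.41, 6.33 and 6.51 after SAHA and at 6.40, 6.48 and 6.35 in control. The groups lay within each other's range, with a change of 0.0054 and a 95% confidence interval of -0.13 to 0.14 (adjusted p = 0.947), and the sign turned to -0.12 after a further quantile normalization and to -0.044 with cyclic loess scaling. LTA, lymphotoxin alpha, which also binds the TNF receptors, read 6.66, 6.83 and 6.69 in SAHA and 6.81, 6.90 and 6.81 in control. Those groups overlapped and LTA did not pass (change -0.11, adjusted p = 0.135), though it was called lower after a further quantile normalization (-0.23, adjusted p = 0.0102), with cyclic loess scaling (-0.17, adjusted p = 0.0396) and on omission of the second SAHA array (-0.17, limma adjusted p = 0.0394). FASLG, the ligand of FAS, had 5.31, 5.26 and 5.30 in SAHA against 5.47, 5.42 and 5.46 in control. FASLG fell by 0.16 (adjusted p = 0.0104) at levels that may be background, and that call ended with the trend and robust options of eBayes (adjusted p = 0.052). TNFSF15, the ligand of the death receptor TNFRSF25, had 5.48, 5.47 and 5.55 in SAHA against 5.63, 5.70 and 5.69 in control and fell by 0.17 (adjusted p = 0.0114). The 6 remaining ligands (LTB, TNFSF4, TNFSF8, TNFSF11, TNFSF13B and TNFSF14) did not pass, with changes from -0.16 for the B cell survival factor TNFSF13B to 0.037 for LTB, lymphotoxin beta.

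Because these ligands are known mainly from immune cells, markers of such cells were set beside them. PTPRC, the common leukocyte antigen, was at 4.08 ± 0.12 in SAHA and 4.05 ± 0.07 in control (SD, n = 3) and did not pass. Of 9 leukocyte markers measured, 1 was called higher, 2 lower and 6 did not pass. That is 33.3% called, against 60% of all genes and 40.6% of genes under the median level, where 8 of the 9 lay. The one that rose was CD68, a lysosomal protein of macrophages that other cells also make, by 1.55, while CSF1R, the receptor of macrophage growth factor, fell by 1.63 and CD79A, a B cell receptor subunit, by 0.28. The summed linear signal of all 9 markers was 2105 to 2152 on the SAHA arrays and 1369 to 1571 on the control arrays. Without CD68, the other 8 summed to 534.9 to 535.7 on the SAHA arrays and 855.1 to 926.1 on the control arrays. The higher sum of all 9 thus lay in CD68 alone. The lower sum of the 8 lay mostly in CSF1R, which averaged 7.32 in SAHA and 8.95 in control (log2). The myeloid marker ITGAM and PTPRC changed upwards, by 0.041 and 0.039, without passing. The B cell markers MS4A1 and CD79A summed to 111.3 to 124.8 in SAHA and 134 to 154.3 in control. The T cell markers CD3E, CD3D and CD2 summed to 153.5 to 163.2 in SAHA and 164.5 to 171.8 in control. The part of other cell types in the rise of the ligands was not tested.

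**Figure D2:**
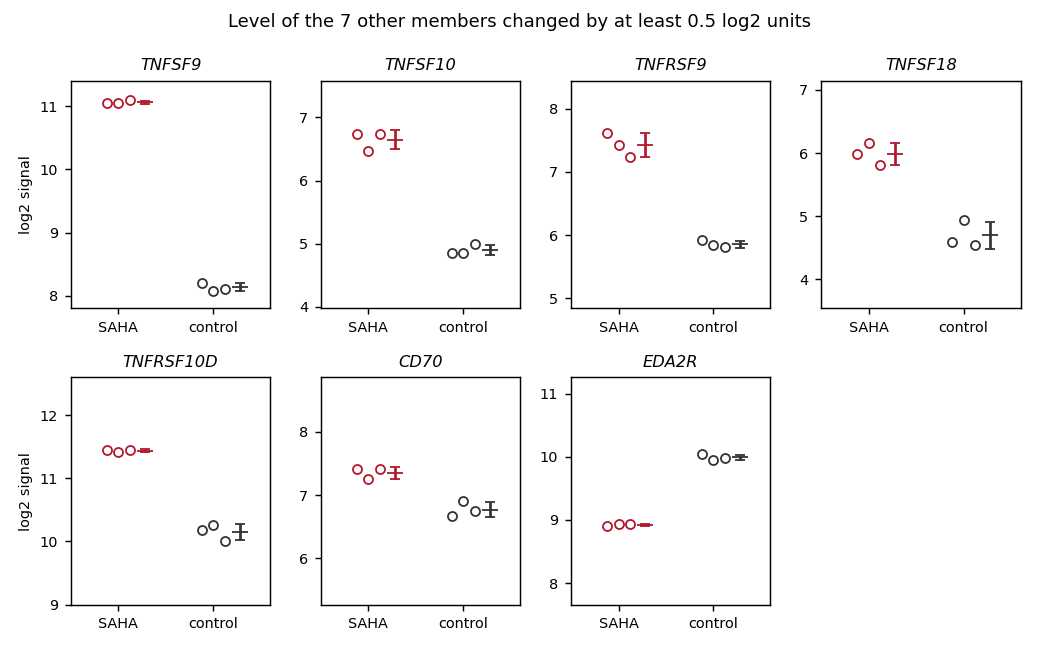
Level (log2 signal, vertical axis, of equal span in each panel) of the 7 members other than death receptors that were called and changed by at least 0.5. Open circles are single arrays, SAHA left and control right, with mean and SD of 3 arrays beside them. SAHA and control arrays are apart in every panel, and EDA2R is the gene that fell.

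RefSeq promoter entries (GRCh38.p14) matched 27 of the 41 members by gene ID. For the 6 of them that changed by at least 1 log2 unit the 250 bases before the first listed gene start are printed, since these are the members a regulatory sequence would be looked up for. Capitals mark matches on either strand to the GC box (GGGCGG), the CCAAT box (CCAAT), the TATA box (TATAAA), the AP-1 site (TGANTCA) and the kappa-B site of NF-kB. TNFSF9 lies at chr19:6530776-6531025, plus strand, TNFSF10 at chr3:172523431-172523680, minus strand, TNFRSF9 at chr1:7940840-7941089, minus strand, TNFSF18 at chr1:173050942-173051191, minus strand, EDA2R at chrX:66639270-66639519, minus strand (the first of 2 listed starts) and FAS at chr10:88990548-88990797, plus strand (the first of 3 listed starts).
TNFSF9: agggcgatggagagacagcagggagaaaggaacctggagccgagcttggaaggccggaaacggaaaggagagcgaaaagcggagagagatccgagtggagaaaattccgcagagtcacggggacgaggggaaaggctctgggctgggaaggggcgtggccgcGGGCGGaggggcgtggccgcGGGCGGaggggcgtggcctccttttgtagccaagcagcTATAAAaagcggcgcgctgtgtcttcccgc
TNFSF10: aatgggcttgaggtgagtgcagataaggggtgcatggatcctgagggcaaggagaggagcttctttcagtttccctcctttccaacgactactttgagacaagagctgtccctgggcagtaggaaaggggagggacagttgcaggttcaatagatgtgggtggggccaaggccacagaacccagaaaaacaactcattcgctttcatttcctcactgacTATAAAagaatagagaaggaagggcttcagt
TNFRSF9: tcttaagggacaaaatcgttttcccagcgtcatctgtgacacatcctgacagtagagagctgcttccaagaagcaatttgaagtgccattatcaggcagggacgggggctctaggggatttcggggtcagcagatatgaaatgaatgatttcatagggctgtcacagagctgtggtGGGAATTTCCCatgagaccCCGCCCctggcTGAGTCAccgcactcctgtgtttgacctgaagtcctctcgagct
TNFSF18: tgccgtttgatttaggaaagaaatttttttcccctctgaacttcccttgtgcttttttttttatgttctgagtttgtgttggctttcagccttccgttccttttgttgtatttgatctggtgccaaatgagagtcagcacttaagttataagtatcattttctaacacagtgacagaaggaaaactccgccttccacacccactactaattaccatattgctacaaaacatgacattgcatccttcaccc
EDA2R: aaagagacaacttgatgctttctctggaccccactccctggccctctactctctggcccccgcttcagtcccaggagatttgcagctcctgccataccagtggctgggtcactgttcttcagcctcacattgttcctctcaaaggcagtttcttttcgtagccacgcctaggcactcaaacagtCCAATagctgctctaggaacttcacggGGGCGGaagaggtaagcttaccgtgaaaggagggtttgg
FAS: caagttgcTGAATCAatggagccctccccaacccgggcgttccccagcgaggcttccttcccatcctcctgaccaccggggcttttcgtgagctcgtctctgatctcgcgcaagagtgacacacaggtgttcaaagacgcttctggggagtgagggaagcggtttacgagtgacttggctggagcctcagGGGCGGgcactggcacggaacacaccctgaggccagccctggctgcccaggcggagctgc

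The 2 ligands that rose most each carried a TATA box close to the start, from base -30 to -25 in TNFSF9 and from -31 to -26 in TNFSF10, counting the base before the start as -1. At any position of the window and on either strand, a TATA box was found in 4 of 27 member promoters (14.8%). It was found in 8.59% of the 14237 promoters of tested genes, and neither count was limited to matches close to the start. TNFSF9 also had 2 GC boxes and 23 CpG pairs, whereas TNFSF10 had no GC box and 2 CpG pairs. TNFRSF9 held 2 kappa-B matches that overlap each other between bases -74 and -64, a GC box and an AP-1 site. TNFSF18 held none of the motifs and was the most AT-rich of the 6, at 38.8% GC. EDA2R had a CCAAT box and a GC box, and FAS a GC box and, from base -242 to -236, an AP-1 site. GC boxes stood in 15 of 27 member promoters (55.6%, against 57.5% of all), CCAAT boxes in 7 (25.9%, against 34.4%), AP-1 sites in 5 (18.5%, against 4.91%) and kappa-B sites in 4 (14.8%, against 11.1%). Member promoters had a median of 57.2% GC, against 62.8% in all promoters. The median was 51.6% for 7 called higher, 55.4% for 6 called lower and 59.4% for 14 not called. Their ranges overlapped widely, at 38.8% to 72.4%, 47.6% to 74.8% and 37.6% to 82.4%. A match describes letters in this window and is no evidence of a bound factor.

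The 8 receptors with a death domain split evenly: 3 were called higher, 3 were called lower and 2 did not pass. FAS, the receptor of FASLG and a classical inducer of apoptosis, fell most, as the only member lower by over 1.5. FAS read 7.52, 7.50 and 7.45 with SAHA, against 9.32, 9.42 and 9.44 in control. All SAHA arrays lay far under all control arrays. The change was -1.90 ± 0.05 (SE), 3.74-fold lower (adjusted p = 3.43e-08), and ranked 247 from the bottom of all genes. TNFRSF10A is the TRAIL receptor also called DR4. TNFRSF10A was at 8.53, 8.44 and 8.51 in SAHA and at 9.75, 9.85 and 9.80 in control. The groups did not overlap, and the change was -1.31 ± 0.05 (SE), 2.48-fold lower (adjusted p = 1.69e-07). TNFRSF1A, the TNF receptor found on most cells, read 11.36, 11.31 and 11.41 in SAHA and 11.74, 11.75 and 11.69 in control. It fell by 0.37 ± 0.05 (SE, adjusted p = 0.00017), again without overlap.

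TNFRSF21, or DR6, known from T cells and neurons, was the death receptor that rose most. TNFRSF21 gave 10.28, 10.28 and 10.22 in SAHA and 9.532, 9.5035 and 9.574 in control. The change was 0.72 ± 0.04 (SE), 1.65-fold (adjusted p = 2.34e-06), with the groups apart. NGFR, the low-affinity receptor of nerve growth factor, read 10.40, 10.35 and 10.47 with SAHA and 9.98, 10.08 and 10.17 without. It rose by 0.33 ± 0.06 (SE, adjusted p = 0.00151). TNFRSF10B, or DR5, the other signalling TRAIL receptor, was at 11.02, 10.98 and 10.98 in SAHA and at 10.84, 10.76 and 10.83 in control. Its rise was small, 0.18 ± 0.04 (SE), 1.14-fold (adjusted p = 0.00595), and all SAHA arrays exceeded all control arrays.

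Neither TNFRSF25 nor EDAR passed. TNFRSF25, or DR3, the receptor of TNFSF15, had 8.81, 8.72 and 8.82 in SAHA and 8.90, 8.91 and 8.78 in control, a change of -0.081 (95% confidence interval -0.21 to 0.044). EDAR, the ectodysplasin receptor, read 5.60, 5.84 and 5.79 in SAHA and 5.65, 5.74 and 5.60 in control, a change of 0.077 (95% confidence interval -0.091 to 0.24) whose sign turned to -0.0036 after a further quantile normalization. The groups overlapped for both genes.

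**Figure D3:**
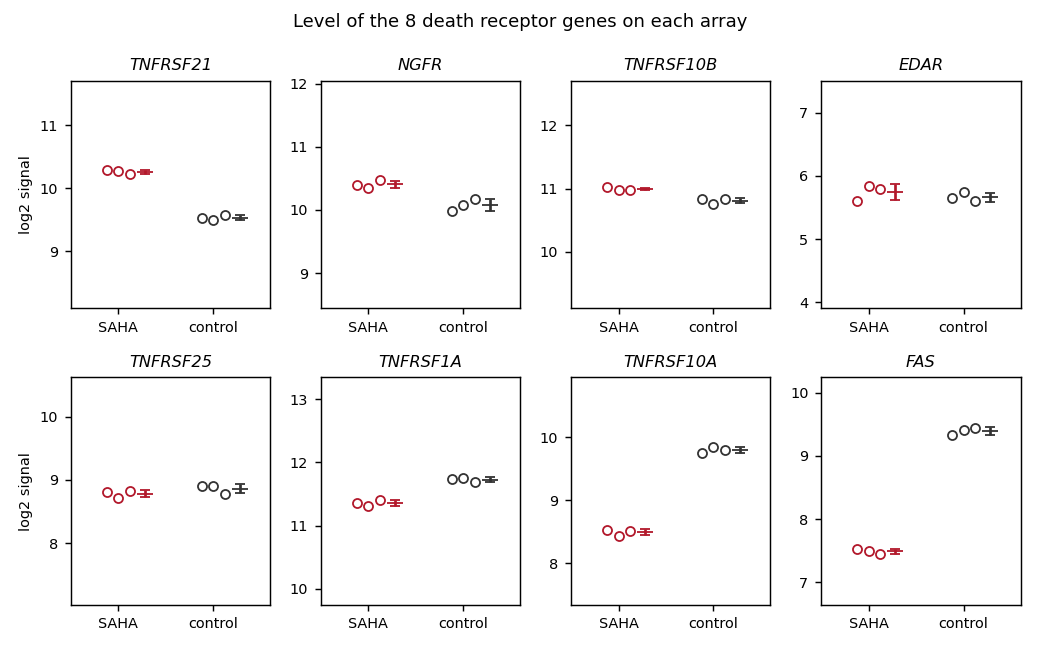
Level (log2 signal, vertical axis, of equal span in each panel) of the 8 death receptor genes on each array. Open circles are single arrays, SAHA left and control right, with mean and SD of 3 arrays beside them, ordered from the largest rise (TNFRSF21) to the largest fall (FAS). TNFRSF10A and FAS are the panels in which SAHA lies more than 1 log2 unit below control.

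Set side by side, 6 of 8 death receptors (75.0%) and 15 of 33 other members (45.5%) were called, against 60% of all genes. Their median changes were -0.0024 and 0.0078, beside -0.0027 over all genes, so neither group was shifted one way at its median. The mean changes were -0.29 for death receptors and 0.25 for the others, beside 0.011 over all genes, and their largest terms were FAS and TNFRSF10A on one side and TNFSF9 and TNFSF10 on the other. Without regard to sign, the median change was 0.35 for death receptors, 0.12 for the other members and 0.24 for all genes. Level moved with this: 1 of 8 death receptors and 24 of 33 other members had a mean level under the median of all genes, and under that median 40.6% of all genes were called, against 79.4% at or above it. The part of level in the difference was not tested. With NGFR and EDAR, which are known mainly for neurotrophin binding and skin development, counted among the others, the difference of the medians became -0.25, against -0.010 as first counted.

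The receptors of TRAIL moved in opposite directions. TNFRSF10D binds TRAIL with a shortened death domain and is known as a decoy. TNFRSF10D read 11.45, 11.41 and 11.45 in SAHA, against 10.18, 10.27 and 10.01 in control. All SAHA values were over 1 log2 unit above the highest control value. The rise was 1.28 ± 0.07 (SE), 2.44-fold (adjusted p = 1.02e-06). TNFRSF10A and TNFRSF10D are neighbours in the RefSeq gene order, with no protein-coding gene between them, and TNFRSF10C, not measured here, lies between TNFRSF10D and TNFRSF10B. Within arrays, the change of TNFRSF10D exceeded that of TNFRSF10A by 2.59 and that of TNFRSF10B by 1.10, and TNFRSF10B exceeded TNFRSF10A by 1.49. In each of these 3 comparisons the 3 SAHA arrays lay on one side of the 3 control arrays (two-sided exact permutation p = 0.1, the smallest that 3 against 3 arrays allow, and 0.1 after adjustment over the 6 comparisons of this kind). TNFRSF11B, osteoprotegerin, the soluble decoy for the bone cytokine TNFSF11 that also binds TRAIL, did not pass (4.41 ± 0.06 in SAHA, 4.29 ± 0.11 in control, SD, n = 3, adjusted p = 0.135).

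Of the 16 receptors that bind TRAFs or have no death domain, 4 were called higher, 3 lower and 9 did not pass, so that 43.8% were called, against 60% of all genes. TNFRSF9, which is 4-1BB itself, the receptor of TNFSF9, rose most. TNFRSF9 was at 7.61, 7.42 and 7.23 in SAHA and at 5.92, 5.84 and 5.81 in control. The SAHA arrays varied more than the control arrays yet lay well above them, and the rise was 1.57 ± 0.09 (SE), 2.97-fold (adjusted p = 1.7e-06). EDA2R, the receptor of the other ectodysplasin isoform and a known target of p53, moved the other way. EDA2R read 8.90, 8.93 and 8.94 in SAHA and 10.04, 9.96 and 9.98 in control. It fell by 1.07 ± 0.04 (SE), 2.10-fold lower (adjusted p = 2.74e-07), with no overlap.

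Smaller calls completed the group. TNFRSF19, or TROY, a receptor of developing nervous tissue and hair, rose by 0.43 (adjusted p = 0.00284). TNFRSF1B, the second TNF receptor, known from immune and endothelial cells, rose by 0.30 (adjusted p = 0.00706). CD40, the costimulator of antigen-presenting cells, rose by 0.14 (adjusted p = 0.0204), but the call ended on leaving out any of 5 of the 6 arrays (without SAHA replicate 1, 2 or 3, or control replicate 1 or 2; adjusted p = 0.0501 to 0.0748). LTBR, the lymphotoxin beta receptor of stromal cells, fell by 0.44 (adjusted p = 0.00217), and TNFRSF12A, the TWEAK receptor induced in injured tissue, fell by 0.28 (adjusted p = 0.000716). The 9 that did not pass ranged from -0.077 for CD27, the receptor of CD70, to 0.086 for TNFRSF11A, the receptor of TNFSF11. Among them were the T cell costimulators TNFRSF4 and TNFRSF18, the B cell receptors TNFRSF13B, TNFRSF13C and TNFRSF17, and TNFRSF8, known as CD30.

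Pairs of ligand and receptor gave mixed changes. TNFSF9 and TNFRSF9 both rose, by 2.93 and 1.57. TNFSF10 rose by 1.74, while its receptors TNFRSF10D, TNFRSF10B and TNFRSF10A changed by 1.28, 0.18 and -1.31. TNFSF18 rose by 1.29, while its receptor TNFRSF18 was at 0.082 without passing. CD70 rose by 0.58, and CD27 did not pass. FAS fell by 1.90 and FASLG by 0.16. EDA rose by 0.34, EDA2R fell by 1.07 and EDAR did not pass.

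Changes also differed in size among other neighbouring members. TNFSF9, CD70 and TNFSF14 follow each other in the gene order of chromosome 19 with no other protein-coding gene between them. TNFSF14, the ligand LIGHT, was at 7.08 ± 0.03 in SAHA and 7.17 ± 0.03 in control (SD, n = 3) and did not pass. It was called lower after a further quantile normalization (-0.20, adjusted p = 0.00308), with cyclic loess scaling (-0.14, adjusted p = 0.017) and with the unmoderated model (adjusted p = 0.0422). Within arrays, the change of TNFSF9 exceeded that of CD70 by 2.35 and that of TNFSF14 by 3.02, and CD70 exceeded TNFSF14 by 0.67 (two-sided exact permutation p = 0.1 each, the smallest possible, and 0.1 after adjustment over 6). On chromosome 1, TNFSF18 rose between FASLG, which fell by 0.16, and TNFSF4, the OX40 ligand, which did not pass (-0.065). LTA, TNF and LTB lie side by side on chromosome 6, and none passed. TNFRSF1A and LTBR on chromosome 12, with 1 gene between them, fell by 0.37 and 0.44, and CD27, next to LTBR, did not pass.

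Genes that act below the receptors were read from lists. Of 13 genes of the death-inducing complex and its effectors, 10 were measured, of which 2 were called higher and 4 lower. That share of calls, 60%, equals the 60% of all genes. The median change was -0.11. CFLAR encodes c-FLIP, which blocks caspase-8 at death receptors. CFLAR read 7.86, 7.65 and 7.83 in SAHA, against 10.01, 9.97 and 9.97 in control. It fell by 2.20 ± 0.06 (SE), 4.59-fold lower (adjusted p = 4.89e-08), and its other probe set, which spread more over the arrays, fell by 2.80 (adjusted p = 1.76e-07). BID, which carries the signal of caspase-8 to mitochondria, was at 9.92, 9.84 and 9.77 in SAHA and at 11.16, 11.13 and 11.13 in control. It fell by 1.29 ± 0.05 (SE, adjusted p = 2.22e-07). CASP8, caspase-8 itself, stood at 8.15, 8.17 and 8.14 in SAHA and 8.80, 8.81 and 8.73 in control and fell by 0.62 ± 0.04 (SE, adjusted p = 4.72e-06). FADD, the adapter of FAS and the TRAIL receptors, did not pass (9.75 ± 0.03 in SAHA, 9.84 ± 0.10 in control, SD, n = 3, adjusted p = 0.254). TRADD, the adapter of TNFRSF1A, rose by 0.45 ± 0.07 (SE, adjusted p = 0.000582). RIPK1 was not analysed here.

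Of 22 TRAF, ubiquitin and kinase genes used by these receptors, 18 were measured, with 11 called higher and 4 lower. These 15 are 83.3%, against 60% of all genes, with a median change of 0.23. MAP3K14, the kinase NIK of the alternative NF-kB pathway, read 10.27, 10.29 and 10.21 in SAHA and 9.14, 9.27 and 9.11 in control and rose by 1.08 ± 0.06 (SE, adjusted p = 8.97e-07). TRAF3, the adapter that has NIK degraded in resting cells, read 8.07, 7.97 and 8.16 in SAHA and 9.30, 9.28 and 9.15 in control and fell by 1.18 ± 0.06 (SE, adjusted p = 1.26e-06). Neither gene's groups overlapped. The list lay mostly in the brighter part of the array, with 4 of 18 genes under the median level. Of all genes at or above that median 79.4% were called, near the share of this list, against 40.6% under it. The part of level in the share of calls of the list was not tested. Of 6 genes linked to release and processing of the ligands, 2 rose, 2 fell and 2 did not pass, so that 66.7% were called, near the 60% of all genes. The rises were in RHBDF1 and RHBDF2 (0.30 and 0.15), whose products help ADAM17 to mature. The falls were in FURIN (-0.27), a protease that processes proproteins, and in TIMP3 (-0.74), which inhibits ADAM17 and releases nothing itself. The sheddase gene ADAM17, which cuts TNF from the membrane, was at 10.25 in both groups.

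**Figure D4:**
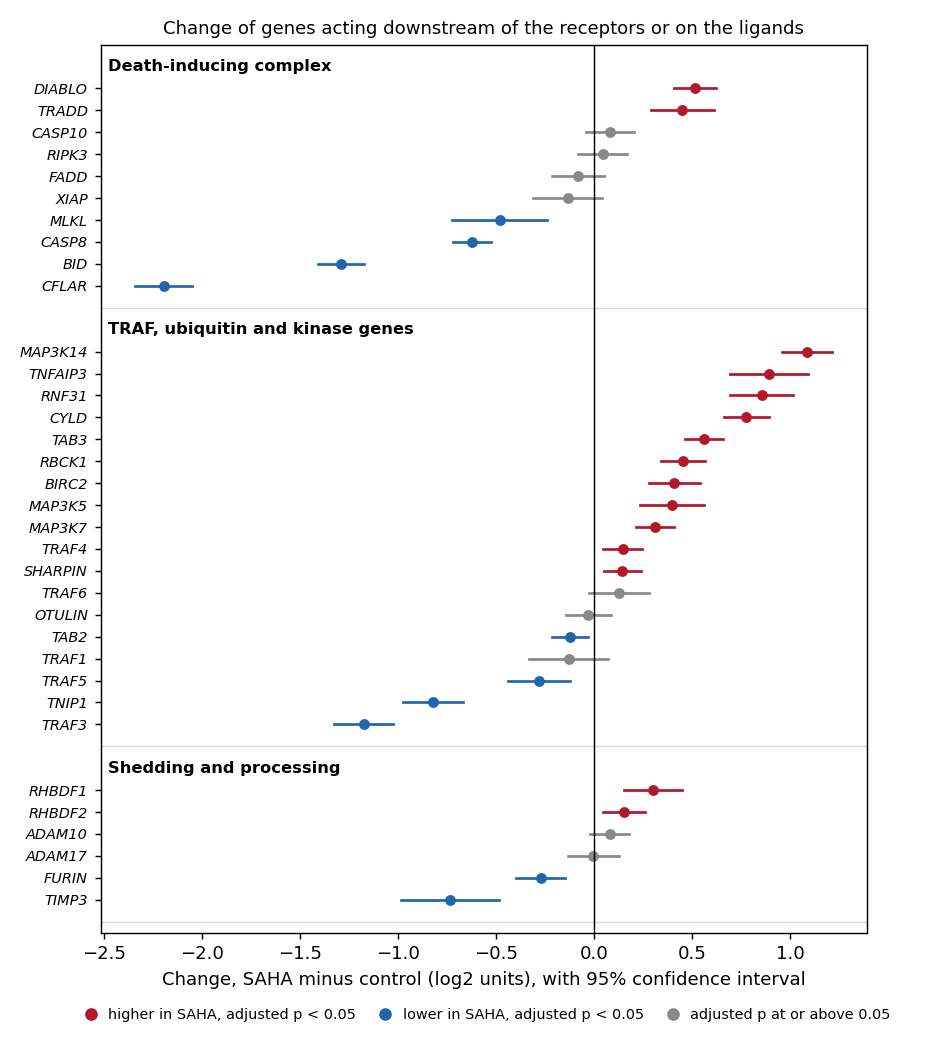
Change (SAHA minus control, log2 units, horizontal axis) of the measured genes of 3 lists that act below the receptors or on the ligands. Points are limma estimates from 3 SAHA and 3 control arrays, lines are 95% confidence intervals, and red, blue and grey mark higher, lower and not passing. CFLAR lies farthest to the left at -2.20 and MAP3K14 farthest to the right at 1.08.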

How the data were processed

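Total RNA was extracted with Trizol and labelled with the Ambion WT kit for Affymetrix whole-transcript arrays, per the labels' protocols. The deposited value of each of 33252 probe sets is a signal intensity made with RMA by the authors, per the submitters' processing notes. Which RMA program and annotation were used is not stated in the labels. Deposited intensities ran from 6.56 to 20338, a linear scale, so log2 was taken. RMA gives all arrays nearly one distribution, so these values cannot show a change in total RNA.

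Of the probe sets, 19460 named exactly 1 gene, and symbols were updated through Entrez identifiers with the RefSeq table of GRCh38.p14 (19429 matched). Each gene was represented by the probe set with the highest mean over the 6 arrays. The probe sets of TNF, and 3 of 4 for LTB, hold identical values. SAHA was compared with control, grouped by the sample titles, with limma 3.58.1 in R 4.3.3 (lmFit and eBayes, no covariates, two-sided, Benjamini-Hochberg over 18417 genes), after a test on simulated data. The number of arrays limits the precision.

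Members, lists and thresholds were chosen with earlier results of these data known. Values per array are given for death receptors and their ligands and for called members changed by at least 0.5. From the lists, genes called and changed by at least 1 are named, and FADD, TRADD, RIPK1, CASP8 and CFLAR always. Single genes named besides were chosen after their values were seen. Alternatives were other scalings, filters on dim genes (5 or the median), other probe sets and moderation, array weights, stricter thresholds, the replicate block and each array left out. The marker sum without CD68 was added after seeing the data.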

Additional observations from a re-analysis of the deposited data

How the results depend on the processing

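Refitted under 17 alternatives, 19 of the 21 called members kept their call wherever they were included, the exceptions being CD40 and FASLG. Of 821 values for members and named pathway or marker genes under these alternatives, 781 kept direction and side of the threshold, 6 lost the call, 11 gained one and 23 changed sign, all of the last for genes that had not passed. The count of called members, 21, was 25 (13 higher and 12 lower) with a further quantile normalization and with cyclic loess. Of all genes, 62.9% and 60.8% were called under those scalings, against 60% at first. The count became 8 when at least 1 log2 unit was also asked for, which 11.3% of all genes reached. On leaving out genes dimmer than the median, 16 members remained in the fit, of which 10 were called (5 higher and 5 lower). In the first fit, too, 10 of these 16 were called. That is 62.5% of them, against 83.1% of all genes in the fit without dim genes. The medians were then -0.082 for death receptors and 0.037 for the others, a difference of -0.12. That difference, -0.010 at first, was 0.013 with cyclic loess, -0.046 with ligands left out of the others, -0.25 with NGFR and EDAR among the others and -0.55 for means. The median of the others, 0.0078, was -0.017 with cyclic loess and -0.011 after a further quantile normalization; the cause was not tested. Leaving out each array in turn gave 20 to 21 called members, beside 55.3% to 59.3% of all genes called. The difference of the medians was then -0.087 to 0.035. The death receptor median was -0.039 to 0.029 and the median of the others -0.0061 to 0.048.

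Signs turned after a further quantile normalization for EDAR (-0.0036), TNF (-0.12), TNFRSF8 (-0.042) and TNFSF8 (-0.083), with cyclic loess for TNF (-0.044), TNFRSF8 (-0.019) and TNFSF8 (-0.025), with array weights for TNFRSF8 (-0.0019) and TNFSF8 (-0.0059), and with the probe set of largest spread for LTB (-0.018). With an array left out, ranges that cross 0 were -0.014 to 0.069 for LTB, -0.040 to 0.047 for TNF, -0.0070 to 0.048 for TNFRSF13B, -0.050 to 0.024 for TNFRSF14, -0.053 to 0.036 for TNFRSF4, -0.11 to 0.098 for TNFRSF8, -0.038 to 0.0083 for TNFSF11 and -0.0072 to 0.037 for TNFSF8. Samples with the same replicate number did not deviate together (correlations of -0.030, -0.17 and -0.0042), so the numbers are not taken as pairs. The replicate block left 21 members called and moved the calls over all genes to 10601, against 11049. CD27, LTA, TNFSF13B and TNFSF14 gained a call as lower under both scalings, TNFSF13B also without control replicate 1 (-0.21, limma adjusted p = 0.0234). No detection calls were used, so signal over background limits what can be said of dim members.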

Other observations

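The values of 3 probe sets that name a member together with other genes entered no test. The one shared by TNFRSF10C, a TRAIL decoy receptor, and LOC254896 was at 5.82 ± 0.10 in SAHA and 5.91 ± 0.09 in control (SD, n = 3). The one shared by TNFSF12, TNFSF13 and their fused transcript was at 6.64 ± 0.04 in SAHA and 6.67 ± 0.08 in control. The one shared by RTEL1 and TNFRSF6B, a soluble decoy for FASLG, was at 7.80 ± 0.04 in SAHA and 7.93 ± 0.01 in control.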
